A study of Rattus norvegicus with 18 samples.

Results

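The solute carriers, ion pumps and ABC transporters described here are 58 of the 17930 genes tested in the L5 dorsal root ganglion (DRG) of the rat, and of the 26172 genes listed in the deposited 50M table. They were chosen by name: a symbol that starts with Slc, Slco, Atp or Abc followed by a family number or letter, and reads in at least 3 of the 6 libraries sequenced to the 50M depth. The rule found 37 Slc, 14 Atp and 7 Abc genes and 0 Slco genes, and all 58 had reads in all 6 libraries, with 23 to 17971 reads per gene and library. Symbols were available for 1994 of the tested genes. The list that pairs them with identifiers was drawn up by the authors from genes with intronic reads and was used here only in part, so other transporter genes are not analysed here.

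Ganglia of male Wistar rats taken 7 days after transection of the L5 spinal nerve (SNT) were compared with those of naive Wistar rats. SNT cuts the peripheral axons of the sensory neurons whose cell bodies lie in the ganglion and is a model of neuropathic pain. Each library was made from poly(A) RNA pooled from 4 animals, with 3 SNT and 3 naive libraries, and with naive controls the effects of surgery and of axotomy cannot be told apart. The ganglion was taken whole, so it holds neurons, satellite glial and Schwann cells, macrophages and connective tissue. At 50M the SNT libraries held 15000789 to 17480115 reads on genes and the naive libraries 18588873 to 19031166. The 17M and 25M runs are further runs of the same libraries, with 4.97 to 6.15 M and 8.32 to 9.95 M reads on genes, and so are technical repeats.

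Membrane transporters set what enters and leaves a cell and its organelles. P-type ATPases pump ions or flip lipids at the cost of ATP, V-ATPases acidify endosomes and lysosomes, ABC transporters use ATP to move lipids, peptides and drugs, and solute carriers move ions, amino acids, nucleotides and metabolites along gradients that the pumps maintain. In sensory neurons, calcium pumps and exchangers end the calcium signals that firing brings about, and the inward chloride transporter NKCC1 keeps internal chloride high, so that GABA depolarizes these cells.

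The largest rise and the largest fall among the members were those of calcium transporters. Transcripts of Atp2b4 (ENSRNOG00000003031), a plasma membrane calcium pump, were 4.77 times as abundant in SNT as in naive libraries, and those of SLC24A2 (ENSRNOG00000008169), a potassium-dependent sodium/calcium exchanger, fell to 0.326 of the naive level. Other large falls were those of Atp8a2 (ENSRNOG00000008053), a phospholipid flippase, of Abcb9 (ENSRNOG00000001082), a lysosomal peptide transporter, and of Slc4a4 (ENSRNOG00000003134), an electrogenic sodium bicarbonate cotransporter, with ratios of 0.401, 0.404 and 0.431. Abcc3 (ENSRNOG00000002948), an exporter of organic anions, and Slc4a7 (ENSRNOG00000005957), an electroneutral sodium bicarbonate cotransporter, rose 2.38-fold and 2.05-fold. These ratios are mean normalized counts, SNT over naive. Log2 fold changes below are SNT minus naive on log2(normalized count + 1), which understates the change of genes with few reads.

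RefSeq promoter entries on the GRCr8 assembly matched 39 of the 58 members by symbol. The 250 bases before the annotated start of the first entry are shown for the 3 matched members with the largest changes. They lie at chr13:47758877-47759126, minus strand for Atp2b4, at chr5:106787781-106788030, minus strand for SLC24A2 and at chr12:38159902-38160151, plus strand for Abcb9, and each is written 5′ to 3′ on the strand of its gene, with capitals on the GC box GGGCGG or its reverse complement CCGCCC.
Atp2b4: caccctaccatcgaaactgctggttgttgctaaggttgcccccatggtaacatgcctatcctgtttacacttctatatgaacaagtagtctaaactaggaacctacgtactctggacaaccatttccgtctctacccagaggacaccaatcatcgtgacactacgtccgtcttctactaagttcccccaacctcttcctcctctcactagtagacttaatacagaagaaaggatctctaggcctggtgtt
SLC24A2: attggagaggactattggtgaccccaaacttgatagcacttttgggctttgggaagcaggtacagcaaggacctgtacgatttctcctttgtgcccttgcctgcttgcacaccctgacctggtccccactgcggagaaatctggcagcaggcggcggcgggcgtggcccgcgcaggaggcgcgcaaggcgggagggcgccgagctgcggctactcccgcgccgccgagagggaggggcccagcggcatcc
Abcb9: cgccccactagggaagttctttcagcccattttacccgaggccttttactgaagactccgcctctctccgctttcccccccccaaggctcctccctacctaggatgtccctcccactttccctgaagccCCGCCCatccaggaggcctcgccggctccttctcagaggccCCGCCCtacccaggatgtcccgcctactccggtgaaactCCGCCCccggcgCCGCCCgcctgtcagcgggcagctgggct
The Atp2b4 window held 46.4% G and C, against 65.2% for SLC24A2 and 66.4% for Abcb9. The motifs searched, on both strands, were the AP-1 site TGACTCA, the CRE TGACGTCA, the E-box CACGTG and the GC box, and no matches overlapped in these windows. The Abcb9 window held 4 GC boxes, and the other two windows held none of the motifs. An AP-1 site was found in 1 of the 39 members' windows (Slc3a1), against 4.05% of all 33469 windows. A CRE was found in 2 (Abcg2 and Slc46a1), against 1.59%, and an E-box in 2 (Slc12a7 and Slc1a4), against 5.59%. A GC box was found in 25 of 39 windows, against 30.5% of all windows, which include entries known by a locus symbol alone. The GC box was present in 5 of 7 matched members that rose, in 11 of 20 that fell and in 9 of 12 that were not called. A match describes the letters only, and whether these starts are used in the ganglion was not tested.

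At 50M, 41 of the 58 members were differentially expressed (DE) between SNT and naive libraries at an FDR of 0.1 (limma, Benjamini-Hochberg adjustment over all 17930 genes), 70.7% of the members against 58.5% of all genes tested. Among the 1994 tested genes with a symbol, from which the members came, 71.4% were DE, a share close to that of the members, so the count is not particular to them. Of the DE members, 15 were higher in SNT (25.9% of members, against 29.2% of all genes and 35.2% of those with a symbol) and 26 were lower (44.8%, against 29.4% and 36.2%), shares for which no test was run. The median log2 fold change of the members was -0.20, against 0.01 over all genes and -0.0048 over genes with a symbol, and it was -0.09 without SNT library 2. When libraries were scaled to equal totals in place of the authors' size factors, the median over all genes moved up by 0.15 and the split of DE members became 18 higher and 19 lower. The higher share then rose from 36.6% to 48.6% of the members' calls and from 49.8% to 62.5% of the calls over all genes. Relative to all genes the members stayed lower, with medians of -0.04 and 0.16 under that scaling. No DE member changed direction under any of the 17 alternative analyses.

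**Figure D1:**
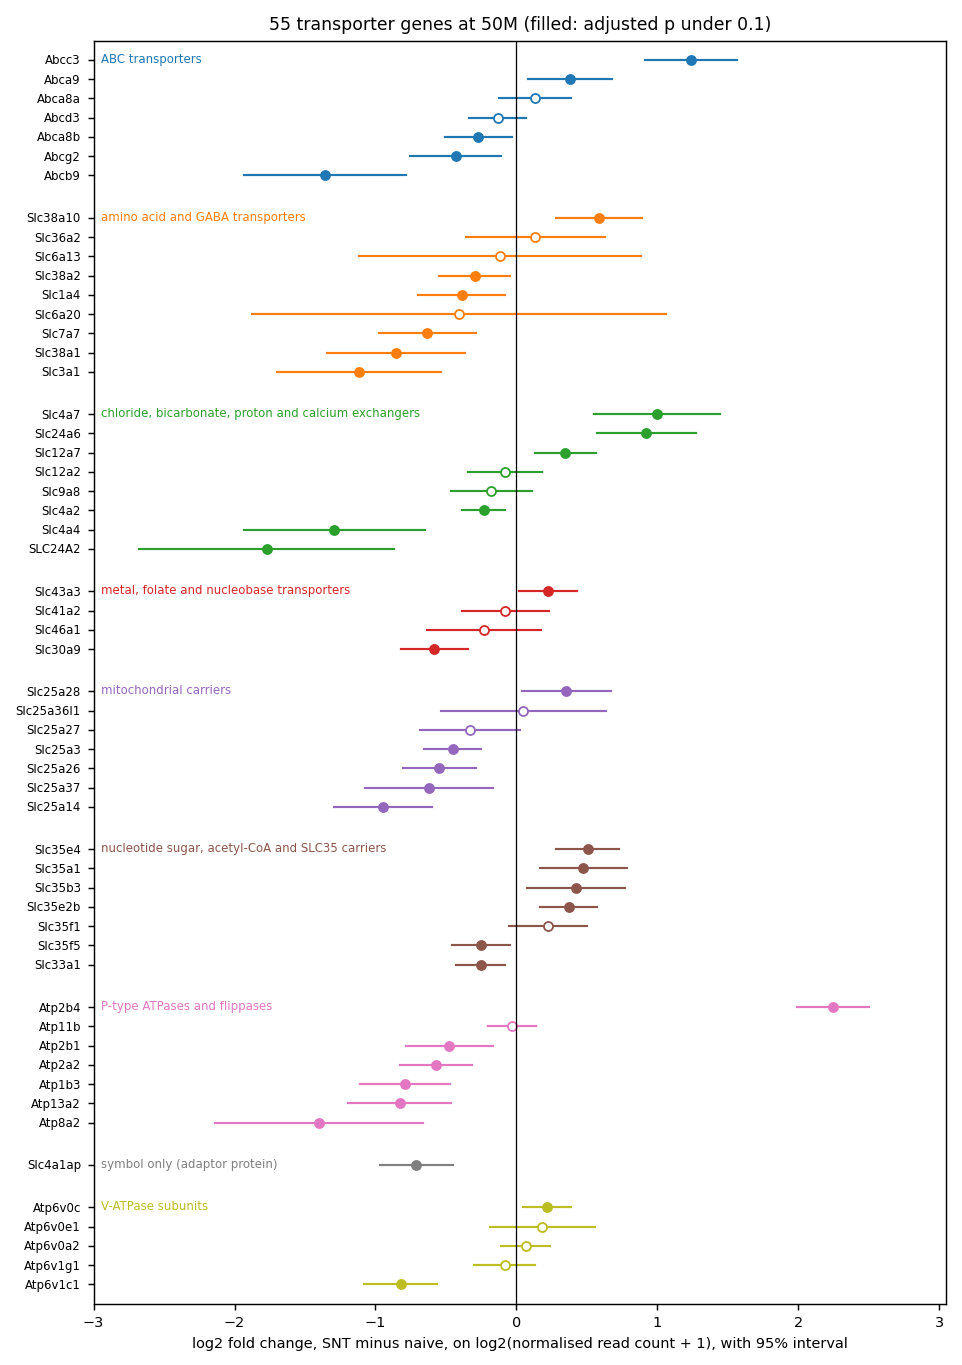
Log2 fold change (SNT minus naive, horizontal axis) of 55 members at 50M, grouped by family, with lines for the 95% intervals and filled points for DE genes (n = 3 libraries per group). Atp2b4 stands alone at 2.25, and SLC24A2 lies farthest down at -1.77.

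All 41 DE members had SNT and naive values that did not overlap, and so did 1 member that was not DE (Slc35f1), which makes 42 of 58 (72.4%, against 62.1% of all genes and 75.8% of those with a symbol). In size the changes were mostly modest. The ratio was above 2 in 3 DE members and below 0.5 in 5, and the median absolute log2 fold change was 0.40, against 0.49 over all genes.

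SNT library 1 lay nearer to the naive libraries than the other SNT libraries did. It held the middle position, between all naive and both other SNT values, in 36 of 58 members (62.1%, against 48.4% of all genes), where SNT 2 did so in 2 and SNT 3 in 4. Of the 26 members that fell, 25 were highest in SNT 1 among the SNT libraries, and 22 were lowest in SNT 2. Of the 15 that rose, 10 were lowest in SNT 1. Shares over all genes were not computed for these counts, nor for the middle position of SNT 2 and SNT 3. For the middle position of SNT 1, which needs groups that do not overlap, the share over genes with a symbol was not computed. The summed level of 10 sensory neuron markers, of which 8 fell and 2 did not pass the test, was 414761 to 475261 normalized counts in the naive libraries, 292041 in SNT 1, 160797 in SNT 2 and 197513 in SNT 3. The largest part of the neuronal sum came from Nefh, with a mean of 203041 in naive and 56085 in SNT libraries. The ratios of the 10 neuron markers ran from 0.258 (Snap25) to 1.13 (Stmn2), and those that did not pass were Stmn2 and Prph (0.829). All 7 fibroblast markers rose, with sums of 49231 to 77237 in naive and 113819 to 175618 in SNT libraries, and 6 of 7 myeloid markers rose, with sums of 10146 to 11041 and 16766 to 22744. In both lists SNT 1 was the lowest SNT library. Most of the myeloid sums came from Lcp1 and from Cd48, the marker that did not pass (ratios of 2.17 and 1.11). The ratios of the other myeloid markers ran from 1.62 to 11.2. For 8 Schwann and satellite glial markers, 3 of which rose and 5 of which did not pass, the sums overlapped (296539 to 544302 and 361075 to 452958). The 2 skeletal muscle markers fell, from 535 to 673 down to 189 to 350.3. No marker was at 0 in any library. The part of these shifts in the members' changes was not tested, and in whole tissue fewer cells of a type and less RNA per cell cannot be told apart.

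**Figure D2:**
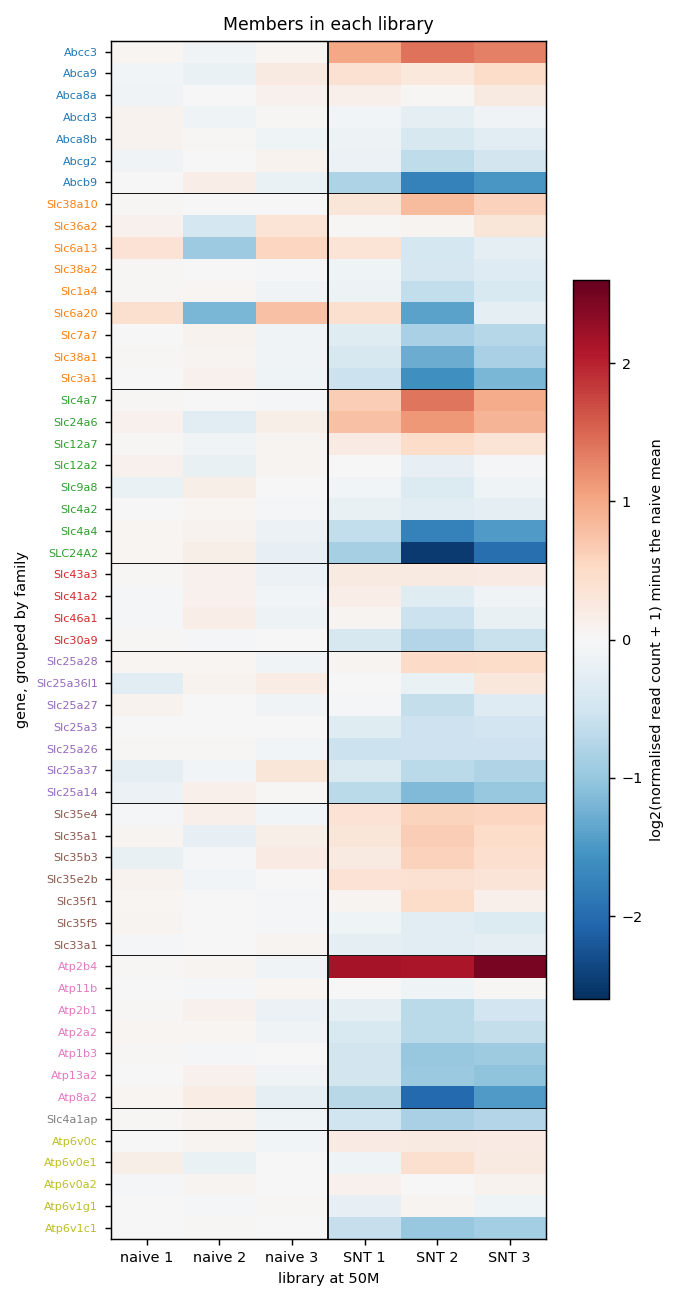
Each row is 1 of 55 members and each column a library at 50M, with colour for log2(normalized count + 1) minus the mean of the naive libraries (blue lower, red higher) and gene names coloured by family. The column of SNT 1 is paler than those of SNT 2 and SNT 3 in most rows, and the rows of Slc6a13 and Slc6a20 vary as much within groups as between them.

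Among the 9 P-type ATPases and flippases, 2 rose, 5 fell and 2 did not pass the test, with a family median of -0.48. Atp2b4 had normalized counts of 524, 539 and 482 in the naive libraries and 2297, 2241 and 2836 in the SNT libraries (log2 fold change 2.25, SE 0.11, adjusted p = 0.000132). The 3 SNT values lay close together and far above the naive values, and SNT 1 was not intermediate here. The change was 2.19 at 25M and 2.20 at 17M. Its relative Atp2b1, the more widely used plasma membrane calcium pump, went the other way, with 4972, 5226 and 4378 in the naive libraries and 4078, 3000.1 and 3449.8 in the SNT libraries (log2 fold change -0.48, SE 0.13, adjusted p = 0.0218). Within a library the ratio of Atp2b1 to Atp2b4 counts was 9.48, 9.7 and 9.08 in the naive libraries and 1.78, 1.34 and 1.22 in the SNT libraries, lower in every SNT library. Only the change of such a ratio is read here, since its level also depends on the lengths of the genes. The log2 ratio changed by -2.72, with the 9 differences between single libraries running from -2.99 to -2.35. Atp2a2, the calcium pump of the endoplasmic reticulum, fell to 0.676 of its naive level (log2 fold change -0.57, SE 0.11, adjusted p = 0.00697).

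Atp1b3, a beta subunit that the sodium pump needs to reach the membrane, had 4150.1, 3965 and 4073 in the naive libraries and 2910.0, 2066 and 2148 in the SNT libraries and fell (log2 fold change -0.79, SE 0.13, adjusted p = 0.0054). The naive values lay close together and all above the SNT values, of which SNT 1 was the highest.

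Flippases move phospholipids to the inner face of a membrane. Atp8a2, known from neurons, had 6378, 7022 and 5189.6 in the naive libraries and 3734, 1524 and 2206 in the SNT libraries (log2 fold change -1.40, SE 0.31, adjusted p = 0.0107). The highest SNT value, that of SNT 1, was still below the lowest naive value. Atp13a2, a lysosomal polyamine transporter whose loss causes a form of parkinsonism, had 3819, 4165 and 3647 in the naive libraries and 2767, 1988 and 1880.2 in the SNT libraries (log2 fold change -0.83, SE 0.15, adjusted p = 0.00646). Atp11b, a widely expressed flippase, was not DE (log2 fold change -0.03, 95% interval -0.20 to 0.14). The calls of this family, 2 up and 5 down, were the same in number under every alternative run.

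The V-ATPase, the proton pump of endosomes and lysosomes, had 5 members, of which 1 rose, 1 fell and 3 did not pass. The cytosolic subunit Atp6v1c1 had 4248, 4388 and 4263 in the naive libraries and 2853, 2182 and 2316 in the SNT libraries (log2 fold change -0.82, SE 0.11, adjusted p = 0.00336). Its naive values lay close together, and all SNT values were far below them. Atp6v0c, which forms the proton-carrying ring in the membrane, had 4652, 4875 and 4447 in the naive libraries and 5405, 5450.5 and 5403 in the SNT libraries and rose a little (log2 fold change 0.22, SE 0.07, adjusted p = 0.04). That call was lost without naive 1 (adjusted p = 0.131), without naive 3 (0.138), without SNT 3 (0.114) and with the replicate number as a block (0.114). Atp6v0c has near-identical copies in mammalian genomes, and reads that mapped to several places were discarded, so its level is uncertain. The other subunits, Atp6v1g1, Atp6v0a2 and Atp6v0e1, had log2 fold changes of -0.08, 0.06 and 0.18. Atp6v0e1 passed the test only without SNT 1 (0.33, adjusted p = 0.051), and Atp6v0a2 only with equal totals (0.23, adjusted p = 0.033).

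The 7 ABC transporters gave 2 rises, 3 falls and 2 genes that did not pass. Abcb9 had 892, 1011 and 801 in the naive libraries and 514, 265 and 313 in the SNT libraries (log2 fold change -1.36, SE 0.24, adjusted p = 0.006). SNT 2 and SNT 3 were close to each other, with SNT 1 between them and the naive libraries. Abcc3 had 137, 123 and 135 in the naive libraries and 264, 349.8 and 327 in the SNT libraries (log2 fold change 1.24, SE 0.14, adjusted p = 0.0023), and every SNT value was well above every naive value. Abcg2, an efflux pump known from the blood-brain barrier and from drug resistance, had 527, 556 and 593 in the naive libraries and 499, 353 and 401 in the SNT libraries (log2 fold change -0.43, SE 0.14, adjusted p = 0.0362). The Abcg2 call was lost without naive 3 (adjusted p = 0.106), without SNT 3 (0.107) and with equal totals (0.127). Abcd3, a peroxisomal importer of fatty acids, was not DE (-0.13, 95% interval -0.33 to 0.07).

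Abca8a, Abca8b and Abca9 are close relatives of the lipid-handling A subfamily, so that reads shared between them were discarded and their levels are uncertain. Abca8a, with 13508, 14305 and 15550.5 in the naive libraries and 15908, 14719 and 16962 in the SNT libraries, was among the members with the most reads and was not DE (log2 fold change 0.13, 95% interval -0.12 to 0.39, adjusted p = 0.337). With equal totals it passed the test (0.30, adjusted p = 0.052). Abca9 had 450.2, 417 and 556 in the naive libraries and 616, 566 and 659.8 in the SNT libraries and rose (log2 fold change 0.38, SE 0.13, adjusted p = 0.0428), a call lost without naive 1 or naive 2 (adjusted p = 0.131 each) and without SNT 3 (0.137). The ratio of Abca8a to Abca9 counts was 30, 34.3 and 28 in the naive libraries and 25.8, 26 and 25.7 in the SNT libraries. The log2 ratio changed by -0.25, with the 9 differences between single libraries running from -0.41 to -0.10. Abca8b fell by 0.27 (adjusted p = 0.0588), and 8 of the 17 alternatives lost that call, among them those without naive 1 (adjusted p = 0.187), naive 2 (0.149), SNT 2 (0.141) and SNT 3 (0.136).

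**Figure D3:**
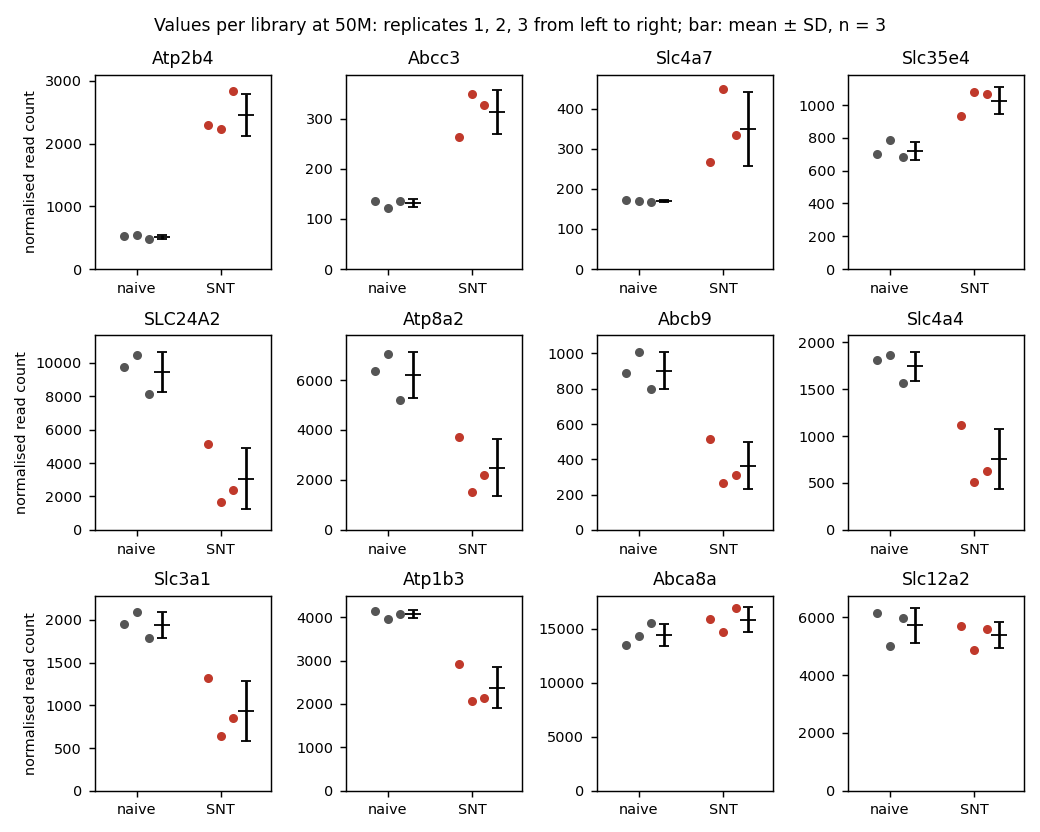
Normalized counts at 50M (vertical axis, from 0) of 12 members in each naive (grey) and SNT (red) library, with mean ± SD (n = 3). Atp2b4, Abcc3, Slc4a7 and Slc35e4 lie higher in every SNT library, the next 6 genes lie lower, and Abca8a and Slc12a2 overlap.

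The 9 exchangers and cotransporters of chloride, bicarbonate, protons and calcium gave 3 rises, 4 falls and 2 genes that did not pass. SLC24A2 had 9727, 10445 and 8126 in the naive libraries and 5132, 1666 and 2415 in the SNT libraries (log2 fold change -1.77, SE 0.38, adjusted p = 0.0097). The SNT libraries differed from each other by more than a factor of 3, and the highest, SNT 1, was still below the lowest naive library. Slc24a6, which carries calcium out of mitochondria in exchange for sodium, rose, from 416, 319.6 and 429 in naive to 651, 839 and 713 in SNT libraries (log2 fold change 0.92, SE 0.15, adjusted p = 0.00468), and was chosen for full values after they were seen. The calcium-handling members thus split, with Atp2b4 and Slc24a6 up and SLC24A2, Atp2a2 and Atp2b1 down.

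Bicarbonate transporters split likewise. Slc4a4 had 1806, 1859 and 1564 in the naive libraries and 1114, 512 and 628 in the SNT libraries (log2 fold change -1.29, SE 0.27, adjusted p = 0.00902), and Slc4a7 had 173, 171 and 168 in the naive libraries and 267, 449 and 334 in the SNT libraries (log2 fold change 1.00, SE 0.19, adjusted p = 0.00674). In both genes SNT 2 was farthest from the naive libraries and SNT 1 nearest to them. The ratio of Slc4a7 to Slc4a4 counts was 0.0959, 0.0919 and 0.107 in the naive libraries and 0.24, 0.877 and 0.532 in the SNT libraries. The log2 ratio rose by 2.29, with the 9 differences between single libraries running from 1.16 to 3.25. Slc4a2, an anion exchanger, fell by 0.23 (adjusted p = 0.0218), a call lost with equal totals (-0.07, adjusted p = 0.368).

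For chloride, Slc12a2, the gene of NKCC1, had 6158, 5015 and 5973 in the naive libraries and 5690.5, 4879 and 5587 in the SNT libraries. These overlapped, and the change was not DE (-0.08, 95% interval -0.35 to 0.18, adjusted p = 0.566). Slc12a7, the potassium/chloride cotransporter KCC4, had 1381, 1267 and 1423 in the naive libraries and 1574, 1877 and 1738 in the SNT libraries and rose (log2 fold change 0.35, SE 0.09, adjusted p = 0.0184). The ratio of Slc12a2 to Slc12a7 counts was 4.46, 3.96 and 4.2 in the naive libraries and 3.62, 2.6 and 3.22 in the SNT libraries, lower in every SNT library. The log2 ratio changed by -0.43, with the 9 differences between single libraries running from -0.78 to -0.13. Slc9a8, a sodium/proton exchanger of the Golgi, was not DE at 50M (log2 fold change -0.18, 95% interval -0.46 to 0.11) but was at 17M (-0.35, adjusted p = 0.0399).

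Of the 9 amino acid and GABA transporters 5 fell, 1 rose and 3 did not pass. Slc3a1, the heavy subunit that brings a cystine transporter to the membrane, had 1949, 2090.2 and 1789.6 in the naive libraries and 1318, 639 and 849 in the SNT libraries (log2 fold change -1.12, SE 0.24, adjusted p = 0.0104). Slc38a1, a neuronal glutamine transporter, had 1081, 1117 and 991 in the naive libraries and 794, 432 and 588 in the SNT libraries (log2 fold change -0.85, SE 0.21, adjusted p = 0.0146). Slc7a7, the light subunit of an exchanger of cationic and neutral amino acids, had 1061, 1145 and 1002 in the naive libraries and 857, 596 and 639 in the SNT libraries (log2 fold change -0.63, SE 0.14, adjusted p = 0.0117). In all 3 genes the groups were apart and SNT 2 was lowest. Slc38a10 rose 1.52-fold (log2 fold change 0.59, SE 0.13, adjusted p = 0.0107), from 1114 to 1151 counts in naive to 1404 to 2008 in SNT libraries.

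Smaller falls were those of Slc38a2, a widely used transporter of neutral amino acids, with 10159, 9921 and 9666 in the naive libraries and 9192, 7301 and 7832 in the SNT libraries (log2 fold change -0.30, SE 0.11, adjusted p = 0.0549), and of Slc1a4, a neutral amino acid exchanger (log2 fold change -0.39, SE 0.13, adjusted p = 0.043). Both calls were lost under several alternatives. That of Slc38a2 was lost without naive 1 (adjusted p = 0.162), naive 2 (0.129), naive 3 (0.106), SNT 2 (0.129) or SNT 3 (0.161), and that of Slc1a4 without naive 1 or naive 2 (0.121 each) or SNT 3 (0.11). The ratio of Slc38a1 to Slc38a2 counts was 0.106, 0.113 and 0.103 in the naive libraries and 0.0863, 0.0592 and 0.0751 in the SNT libraries. The log2 ratio changed by -0.56, with the 9 differences between single libraries running from -0.93 to -0.25.

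The other genes of this group varied within groups. Slc6a20, a carrier of proline, had 404, 132 and 508 in the naive libraries and 403, 114 and 252 in the SNT libraries, and Slc6a13, a carrier of GABA and taurine, had 259, 103 and 293 in the naive libraries and 254, 143 and 167 in the SNT libraries. Naive 2 and SNT 2 held the lowest values of their groups in both, and the 95% intervals of the log2 fold change were wide (-1.87 to 1.06 and -1.12 to 0.88), so these libraries set no close limit on a change in either direction. Both genes are given in full because this spread was seen in the data. Slc36a2, which carries small amino acids with protons, was lowest in naive 2 as well (516, against 769 and 903), with a log2 fold change of 0.13 (95% interval -0.36 to 0.62). Naive 2 also had the lowest summed glial, fibroblast and myeloid markers of the naive libraries, and the part of this in the 3 genes was not tested.

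Mitochondrial carriers of the SLC25 family had 4 falls, 1 rise and 2 genes that did not pass among 7. Slc25a14, an uncoupling protein of nervous tissue, had 330.5, 404 and 374 in the naive libraries and 226, 165 and 185 in the SNT libraries (log2 fold change -0.95, SE 0.15, adjusted p = 0.00426), and its change shrank at lower depth, to -0.86 at 25M and -0.47 at 17M. Slc25a26, which imports the methyl donor S-adenosylmethionine, had 183, 183 and 172 in the naive libraries and 121, 123 and 124 in the SNT libraries (log2 fold change -0.55, SE 0.11, adjusted p = 0.00789), with SNT values within 3 counts of each other. Slc25a3, the phosphate carrier that ATP synthesis needs, fell to 0.733 of its naive level (log2 fold change -0.45, SE 0.08, adjusted p = 0.00674). Slc25a27, another uncoupling protein, just missed the threshold (-0.33, adjusted p = 0.108) and passed it without SNT 1 (-0.47, adjusted p = 0.0082). It also passed with the replicate block (adjusted p = 0.0932) and, barely, with the filter at a mean of at least 10 (0.0999). Slc25a36l1, with 22.8 to 34.9 normalized counts per library and a name that marks it as a relative of Slc25a36, with which it may share reads, was not DE (0.05, 95% interval -0.54 to 0.63).

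The mitoferrins carry iron into mitochondria. Slc25a37 (mitoferrin 1, the form of developing red cells) had 172, 193 and 256 in the naive libraries and 158, 125 and 118 in the SNT libraries and fell (log2 fold change -0.62, SE 0.19, adjusted p = 0.0335), and Slc25a28 (mitoferrin 2) had 393, 394 and 357 in the naive libraries and 402, 539.8 and 530.5 in the SNT libraries and rose (log2 fold change 0.35, SE 0.13, adjusted p = 0.0622). The call of Slc25a37 was lost without SNT 3 (-0.54, adjusted p = 0.109), and that of Slc25a28 without naive 1 (0.124), naive 2 (0.115), naive 3 (0.165), SNT 2 (0.16) or SNT 3 (0.186). When 1 library was left out, the log2 fold change of Slc25a28 was 0.28 to 0.49 and that of Slc25a37 -0.74 to -0.46. The ratio of Slc25a37 to Slc25a28 counts was 0.438, 0.49 and 0.718 in the naive libraries and 0.393, 0.231 and 0.222 in the SNT libraries, lower in every SNT library. The log2 ratio changed by -0.97, with the 9 differences between single libraries running from -1.68 to -0.16. For this and the other 5 pairs the exact permutation test gave a two-sided p of 0.1, also after adjustment over the 6 pairs. That is the smallest p that 3 against 3 libraries allow. The pairs were chosen with earlier results of these data known, and each holds at least 1 DE gene. Ratios that lie apart were therefore likely beforehand, and this p is no independent support.

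**Figure D4:**
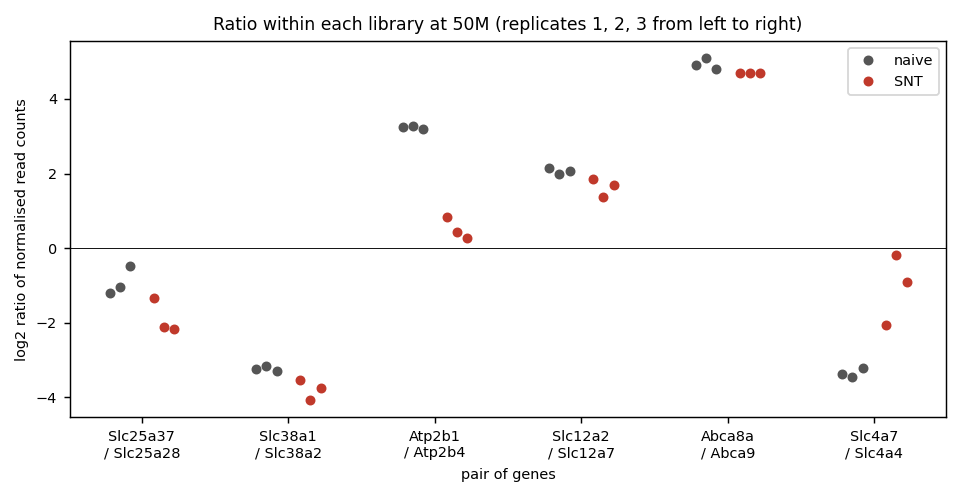
Log2 ratio of the normalized counts of 6 pairs of related genes within each library at 50M, naive in grey and SNT in red. The groups are apart in all 6 pairs, most widely for Atp2b1 to Atp2b4 and least for Abca8a to Abca9. The pairs were chosen with earlier results known, and no share over other pairs of genes was computed.

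The carriers of nucleotide sugars and acetyl-CoA and their SLC35 relatives were the 1 family with more rises than falls at the authors' size factors: 4 of 7 rose, 2 fell and 1 did not pass, with a median of 0.37. With equal totals, which make 62.5% of the calls over all genes rises, 5 rose and 0 fell. Under that scaling rises outnumbered falls also among the ABC transporters (3 and 1) and the V-ATPase subunits (2 and 1). Slc35e4, an orphan carrier, had 699.6, 786 and 682 in the naive libraries and 933, 1081 and 1067 in the SNT libraries (log2 fold change 0.51, SE 0.09, adjusted p = 0.00658). Slc35a1, which brings CMP-sialic acid into the Golgi, had 508, 417 and 539 in the naive libraries and 604, 754 and 674 in the SNT libraries (log2 fold change 0.48, SE 0.13, adjusted p = 0.0214). Slc35b3, a carrier of the sulfate donor PAPS, had 213, 237 and 282 in the naive libraries and 286, 368 and 327 in the SNT libraries (log2 fold change 0.42, SE 0.15, adjusted p = 0.0477). The increases were all below 1.5-fold, and the lowest SNT value of Slc35b3 was only just above its highest naive value. The Slc35b3 call was lost without naive 1 (adjusted p = 0.155), naive 2 (0.121), SNT 2 (0.125) or SNT 3 (0.12). Slc35e2b rose as well (log2 fold change 0.37, SE 0.08, adjusted p = 0.0116). Slc33a1, the acetyl-CoA carrier, and Slc35f5 fell by 0.25 each (adjusted p = 0.0266 and 0.0489), and with equal totals both calls were lost (-0.09 each, adjusted p = 0.363 and 0.402). The Slc35f5 call was lost also without naive 1 (0.165), naive 2 (0.11), SNT 2 (0.104) or SNT 3 (0.159). Slc35f1 did not pass (0.22, adjusted p = 0.152) but did without SNT 1 (0.30, adjusted p = 0.04) and with equal totals (0.39, adjusted p = 0.037).

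Of the 4 carriers of metals, folate and nucleobases, 1 fell, 1 rose and 2 did not pass. Slc30a9, a zinc transporter of mitochondria, had 5235, 5043 and 5145 in the naive libraries and 3854, 3037 and 3459 in the SNT libraries (log2 fold change -0.58, SE 0.10, adjusted p = 0.00545), and all SNT values lay far below the closely spaced naive values. Slc43a3, a nucleobase carrier, had 792, 842 and 698 in the naive libraries and 908, 909 and 900.4 in the SNT libraries (log2 fold change 0.22, SE 0.09, adjusted p = 0.0688), and 9 of 17 alternatives lost that call, with a change of 0.15 without naive 3 (adjusted p = 0.2). It was lost also without naive 1 (0.142), SNT 2 (0.125) or SNT 3 (0.151). Slc46a1, the proton-coupled folate transporter, and Slc41a2, a magnesium carrier, had log2 fold changes of -0.23 and -0.08 and passed only without SNT 1 (-0.38 and -0.21, adjusted p = 0.042 and 0.095). Slc4a1ap carries the name of a carrier but encodes an adaptor protein, and it fell, from 1128, 1173 and 1016 in naive to 769, 614 and 650.3 in SNT libraries (log2 fold change -0.71, SE 0.11, adjusted p = 0.0042).

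A list of 18 further genes of transport that the naming rule leaves out was drawn up by hand from the same symbols. It had 4 rises, 9 falls and 5 genes that did not pass. Of all genes tested 29.2% rose and 29.4% fell, and of those with a symbol 35.2% and 36.2%. The median log2 fold change of the list was -0.21, with a range of -1.03 to 0.61, and no test of the list was run. Tmem30a, the partner subunit of flippases, fell by 0.49 and Fxyd2, a regulatory subunit of the sodium pump, by 0.77 on the log2 scale (adjusted p = 0.00949 and 0.00599). Mpc1 and Mpc2, which together form the mitochondrial pyruvate carrier, fell by 0.68 and 0.27 (adjusted p = 0.00315 and 0.0543). Tpcn1 and Tpcn2, cation channels of endosomes and lysosomes, rose by 0.61 and 0.55 (adjusted p = 0.0148 and 0.00409). The lowest value was that of Wnk2, a kinase that acts on chloride cotransporters, at -1.03 (adjusted p = 0.014).

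Read depth was the second factor of the study, and the members changed little with it. At 25M, 37 members were DE (63.8%, against 55.9% of all genes), and at 17M 38 were (65.5%, against 52.3%). The share over genes with a symbol was not computed at these depths. At 50M it was 71.4%, close to the 70.7% of the members. All 3 depths called 34 members, 12 higher and 22 lower, 42 were called at 1 or more depths and 16 at none. No shares over all genes were computed for these counts. The sign was the same at all depths in 54 members. Slc25a14 had the largest difference between 50M and 17M, 0.47 on the log2 scale, and the median absolute difference was 0.05. Slc43a3 was DE at 50M alone, and Slc25a26, with 121 to 183 normalized counts per library at 50M, lost its call at 17M (-0.28, adjusted p = 0.255). Since the runs share their libraries, agreement between depths speaks of sequencing and not of animals.

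**Figure D5:**
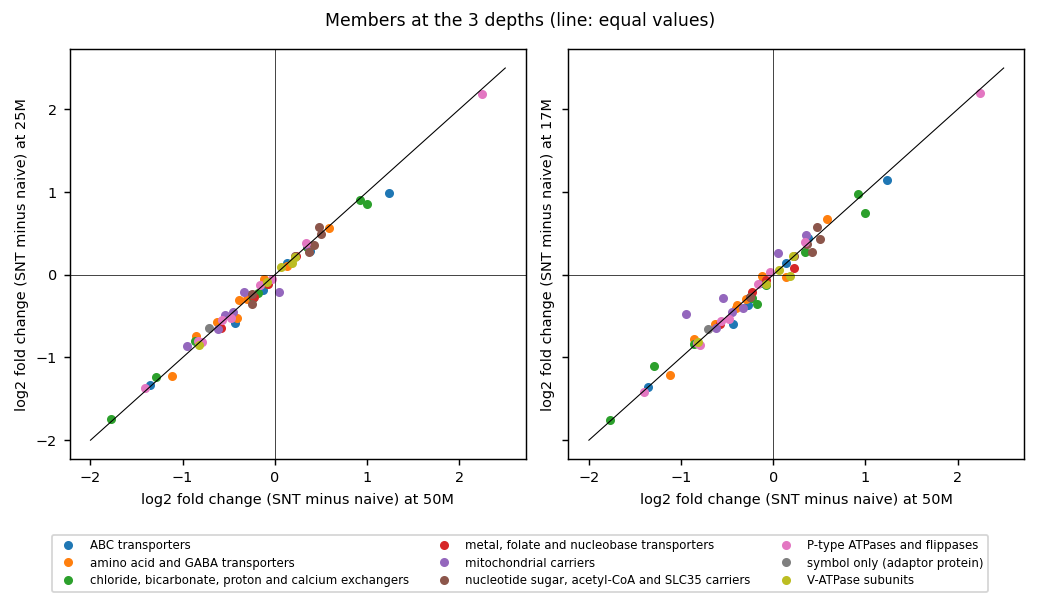
Log2 fold change (SNT minus naive) of the 58 members at 25M (left) and 17M (right) against 50M, coloured by family, with the line of equal values. Points lie along the line, and Slc25a14, at -0.95 for 50M and -0.47 for 17M, lies farthest from it.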

How the data were processed

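Poly(A) RNA of the L5 DRG was sequenced on the Illumina GAIIx, with 34-base reads. Per the study's methods, Bowtie placed the reads on the Rn5 assembly of the rat, those with several places were dropped, and exonic reads of each Ensembl gene were counted without regard to strand. Near-identical paralogs therefore lose reads, and overlapping antisense transcripts are counted with a gene. The signal values that the authors deposited, 1 table per depth, are read counts divided by DESeq size factors. All 18 columns were used, and 100% of values were whole multiples of a read (largest departure 7.57e-10 of a read), from which read counts were recovered.

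SNT and naive libraries were compared at each depth alone on log2(normalized count + 1), using limma (version 3.58.1, R version 4.3.3) and a trended variance prior. Genes with reads in at least 3 of 6 libraries were tested, two-sided, with Benjamini-Hochberg adjustment over all of them and an FDR of 0.1. The fit was tested on simulated data. Results were recomputed with edgeR 4.0.16 and DESeq2 1.42.0 on the recovered reads, with the 3 runs summed, without each library in turn, with the replicate number as a block, with libraries of equal totals, without the trend, at an FDR of 0.05, without the filter or with a mean of at least 10, and with pseudocounts of 0.5 or 5. Ratios of gene pairs within libraries were compared with an exact permutation test. Levels of different genes are not compared, since no gene lengths were used. Libraries are separate pools of animals.

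The members, families, pairs and marker lists were chosen with earlier results of these data known. Counts cover all members, of which 3 are not reported here by name. Values of each library are given for up to 3 DE members per family with groups apart and the largest changes, for the pairs and for Atp1b3. Symbols came from a list that the study gives for genes with intronic reads, used here in part. Exon arrays were not used here.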

Additional observations from a re-analysis of the deposited data

How the results depend on the processing

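Of the 41 DE members at 50M, 28 (10 higher and 18 lower) kept their call under all 17 alternatives. The call was lost under 1 or more in 13, while 7 of the 17 others gained one. The number of DE members was 41 with edgeR (57.8% of all genes tested there were DE), 40 with DESeq2 (54.6%) and 35 without a filter (35.9%). It was 37 at an FDR of 0.05 (49.9%) and 37 with equal totals (58.9%). When 1 library was left out, it ran from 30 without SNT 3 (47.8%) to 46 without SNT 1 (64.5%). The median log2 fold change of the members moved to -0.0425 with equal totals, which raise the median over all genes by 0.15, and ran from -0.28 to -0.09 when 1 library was left out. Without 1 library, 10 to 17 members rose and 20 to 29 fell at 50M. Rises were 31.2% to 37% of the members' calls there and 48.4% to 50.4% of those over all genes. At 25M 30 to 45 members were DE without 1 library (44.9% to 61.6% of all genes), and at 17M 26 to 43 were (41.2% to 58.8%). The pair log2 ratios then ran from -2.88 to -2.61 for Atp2b1 to Atp2b4, 1.86 to 2.79 for Slc4a7 to Slc4a4, -1.23 to -0.76 for Slc25a37 to Slc25a28, -0.68 to -0.41 for Slc38a1 to Slc38a2, -0.54 to -0.30 for Slc12a2 to Slc12a7 and -0.31 to -0.16 for Abca8a to Abca9. With the replicate block 39 members were DE at 50M (12 higher and 27 lower), 34 at 25M and 35 at 17M. The shares over all genes were 52.8%, 49.9% and 46.8%. The labels do not say that equal replicate numbers mark shared animals or days, so the numbers were not taken as pairs. The deviations of equally numbered libraries from their group means correlated at 0.047, -0.35 and 0.18 over 14089 genes. Those of unequally numbered libraries correlated at -0.39 to 0.37. Deviations within a group are tied to each other, so these correlations alone cannot settle a pairing. Pools of 4 animals and 3 libraries per group limit the precision, and at the lowest member, Slc25a36l1, counting error adds to the spread between libraries.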
